A study of Bos taurus with 18 samples.

Results

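Osteoclasts are the bone-resorbing giant cells that form when precursors of the monocyte and macrophage lineage fuse. Stromal and osteoblast-lineage cells of the marrow supply the signals for this: CSF1 keeps the precursors alive, the ligand RANKL (gene TNFSF11) acts on the receptor RANK (TNFRSF11A), and the soluble decoy receptor osteoprotegerin (TNFRSF11B) binds RANKL and blocks it. RANK signalling switches on the transcription factor NFATC1, which drives genes of the mature cell such as ACP5, CTSK, CALCR, OSCAR, ATP6V0D2 and MMP9.

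These 10 gene symbols were looked up in RNA sequencing counts of cultured bovine bone marrow-derived mesenchymal stem cells (MSCs), and 9 of them were found among the 16989 genes of the files, since OSCAR has no row. The group was chosen by values measured in these libraries, among them the high MMP9 count of the heterogeneous population. Differences between that population and the clones are therefore given for these 9 genes as a description, without a test.

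The samples were 17 clones, each a population grown from 1 MSC, and 1 heterogeneous (mixed, not clonal) population, all from the same juvenile donor. All were grown on tissue culture plastic in DMEM with FBS and antibiotics, without an osteoclast-forming or chondrogenic factor in this medium, and poly-adenylated RNA was sequenced. The methods place the clones at the first passage and do not name the passage of the heterogeneous population. Each clone and the heterogeneous population was sequenced once, so the only spread available is that between clones, and a difference of the heterogeneous population from the clones describes 1 library. In such bulk RNA, a change in the share of 1 cell type cannot be told apart from a change in its RNA per cell.

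The clones held 11484812 to 18458157 reads on genes and the heterogeneous population held 16092501. MSC markers were counted in all 18 libraries, with NT5E (CD73) at 3212 to 10884 reads in the clones and 3548 in the heterogeneous population, and THY1 (CD90) at 2820 to 9929 and 7688. LEPR, another marker of marrow stromal cells, had 0 to 2 reads in every library. The leukocyte gene PTPRC (CD45) had 0 to 10 reads in the clones and 102 in the heterogeneous population (log2 6.46, edgeR adjusted p = 1.36e-04, and 0.213 by DESeq2). Without clone G, which had the 10 reads, the log2 difference of PTPRC was 7.48. Clones C and O were the closest pair of libraries (chi-square of their counts 4.73 per degree of freedom, against 21.4 for the next pair, where 1 is counting error alone) and were kept as 2 clones. Clone N stood farthest from the rest, with 76 genes called higher and 10 lower than in the other 16 clones. TRAF6 and ATP6AP2, which nearly all cells use, had 0 reads in every library, so a 0 in these counts does not show that a gene is silent.

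MMP9 encodes gelatinase B, a secreted protease that degrades denatured collagen and is made by osteoclasts, macrophages and neutrophils. Its lowest count in a clone was 1 read, the median 60 and the highest 229, and the heterogeneous population had 10509. Scaled to CPM, the count divided by the library's total on genes and given per 1e6 reads, the clones ran from 0.0715 to 16.2 with a median of 4.05, and the heterogeneous population was at 653 CPM. No clone came near it: its level was 161 times the clone median and 40.3 times that of clone C, the highest clone. The fitted log2 difference between the heterogeneous population and the clones was 7.30 (standard error 0.86, n = 17 clones and 1 library).

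**Figure D1:**
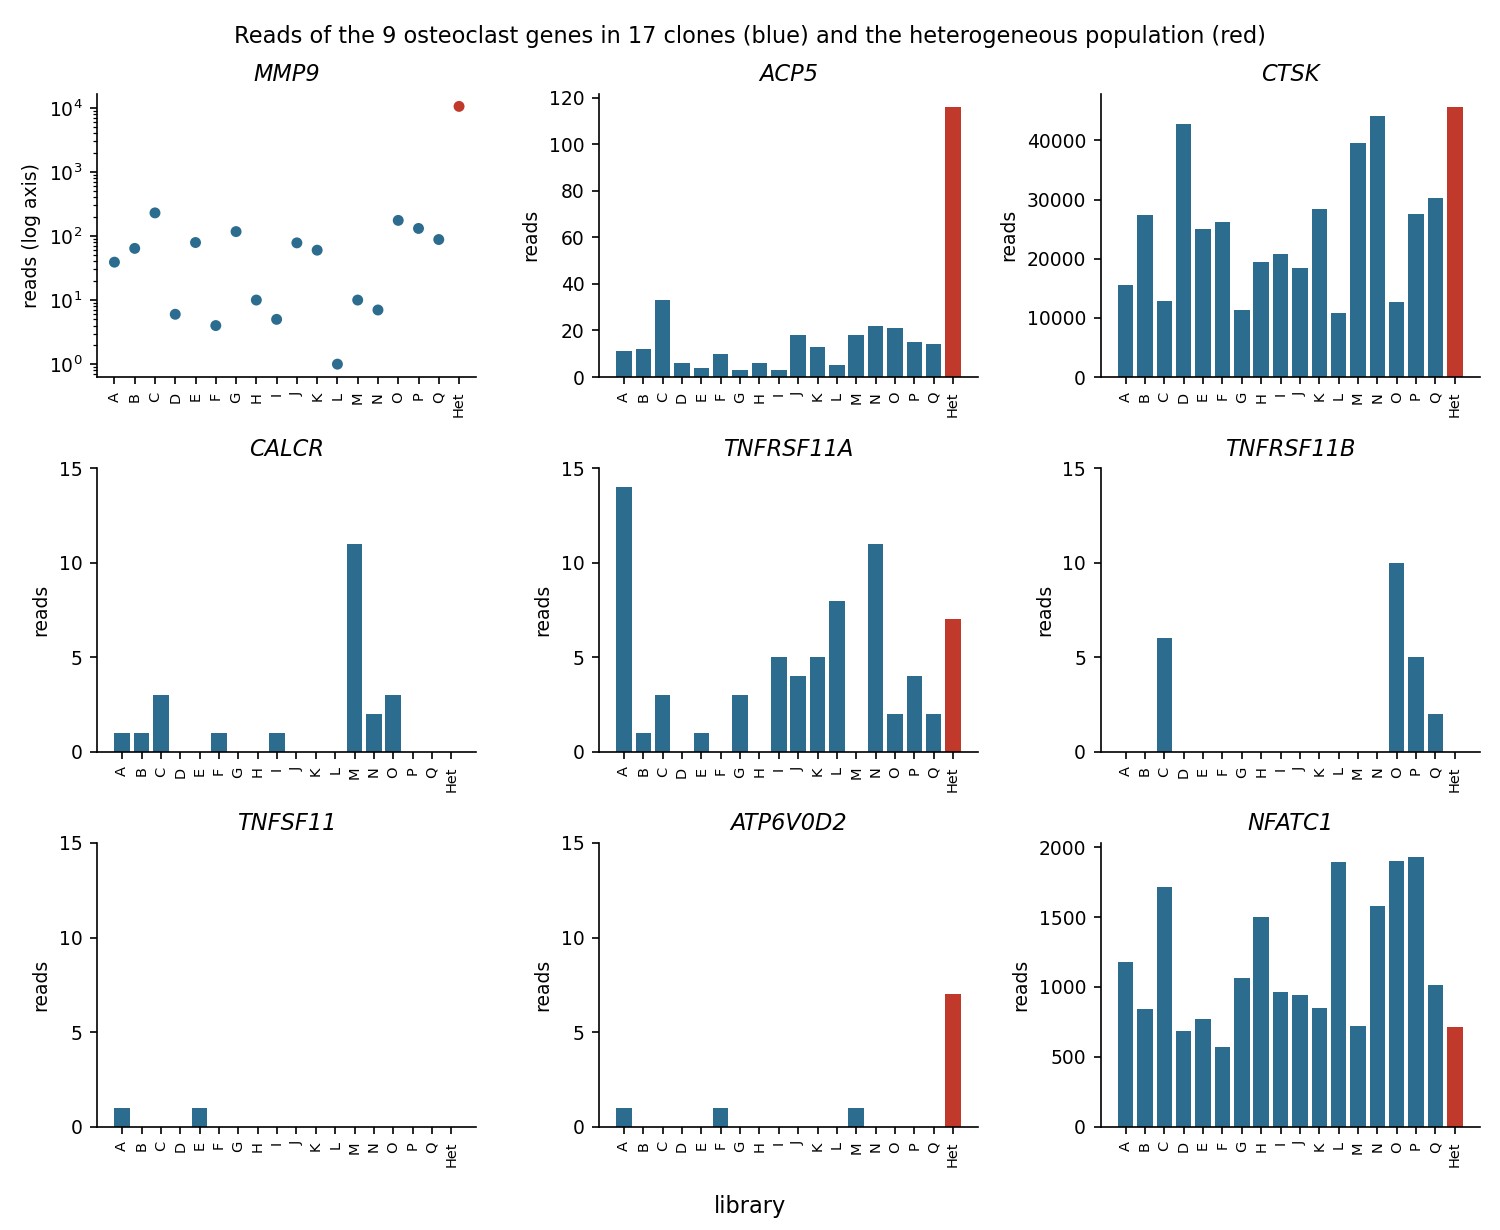
Reads (vertical axis) of the 9 osteoclast genes in each library (horizontal axis), with the 17 clones in blue and the heterogeneous population (Het) in red; MMP9 is drawn as points on a log axis and the others as bars from 0. MMP9 (10509 reads) and ACP5 (116) stand far above all 17 clones in the heterogeneous population, CTSK (45656) is just above clone N (44100) in reads, NFATC1 (710) lies within the clones, and the other 5 genes have at most 14 reads in any library.

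Among the clones MMP9 separated into a lower and a higher run of values. Clones D, F, H, I, L, M and N had 1 to 10 reads each (0.0715 to 0.626 CPM), and clones A, B, C, E, G, J, K, O, P and Q had 39 to 229 (3.17 to 16.2 CPM). The step between the runs was 5.06-fold, from clone H at 0.626 CPM (95% exact Poisson interval 0.300 to 1.15) to clone A at 3.17 CPM (2.25 to 4.33). These intervals cover counting error only. Of the 16 pairs of neighbours in the order of levels, 14 had overlapping intervals, and the 2 that did not were H and A at this step and O and C at the top.

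MMP9 was among the most variable genes of the clones. Its log2 CPM, with 0.25 CPM added before the logarithm, had an SD of 1.82 (n = 17 clones), larger than in 99.7% of the 10851 genes with a median of at least 10 reads, whose median SD was 0.33. Leaving out clone L, the lowest, gave an SD of 1.71, and leaving out clone O gave 1.79. Its counts varied 68.0 times more between clones than counting error alone would give.

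**Figure D2:**
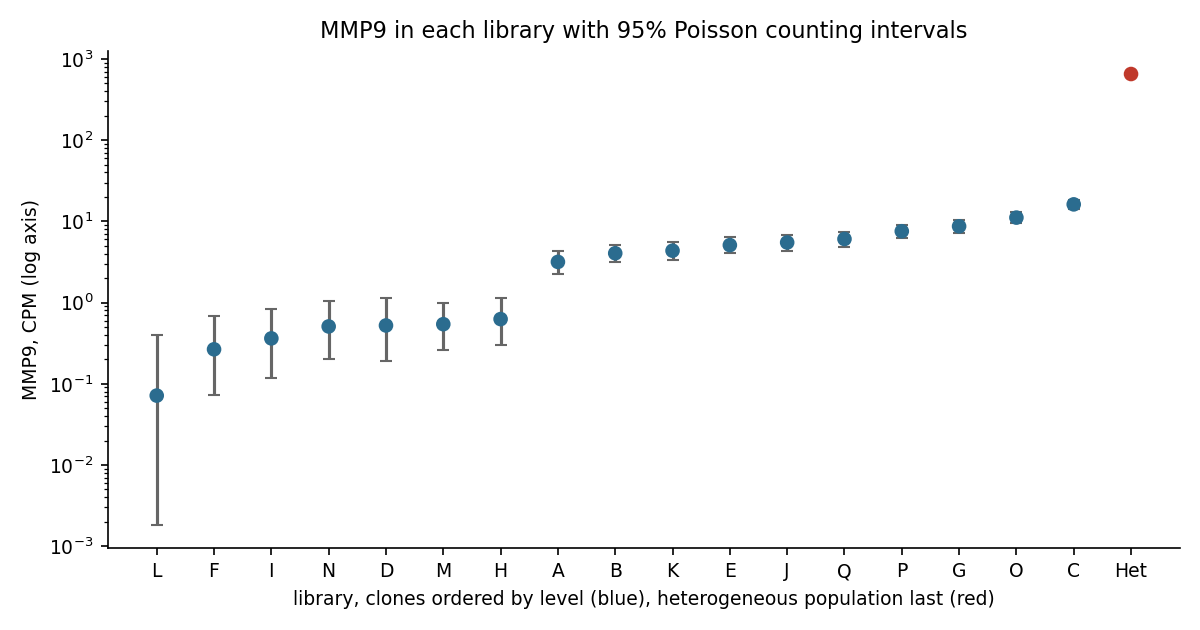
MMP9 level in CPM (vertical log axis) in each library, with the 17 clones in ascending order (blue) and the heterogeneous population last (red); bars are 95% exact Poisson intervals of the count. The clones from L to H lie between 0.0715 and 0.626 CPM and those from A to C between 3.17 and 16.2, and the heterogeneous population is at 653 CPM.

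ACP5 encodes the tartrate-resistant acid phosphatase used to stain osteoclasts, an enzyme also found in activated macrophages. The clones had 3 to 33 reads with a median of 12, and the heterogeneous population had 116. This was 7.21 CPM (5.96 to 8.65) against 0.217 to 2.34 CPM in the clones, or 3.09 times clone C, the highest, and 8.32 times the clone median. All 17 clones lay below the heterogeneous population, and no pair of neighbouring clones in the order was separated by its counting interval. Its SD between clones was 0.72 on the log2 scale.

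CTSK encodes cathepsin K, the cysteine protease with which osteoclasts cut bone collagen, and fibroblasts and other stromal cells make it too. It was counted at 10829 to 44100 reads in the clones, with a median of 25113, and at 45656 in the heterogeneous population. In CPM the clones ran from 774 in clone L to 3720 in clone D, a 4.80-fold range, with 3202 in clone N. The heterogeneous population, at 2837 CPM, lay within that range: 2 clones were above it and 15 below. Here 12 of the 16 neighbours in the order differed by more than their counting intervals, so the order of the clones is well measured for CTSK (SD 0.65 on the log2 scale), although each clone stands on 1 library.

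NFATC1, the transcription factor at the centre of osteoclast formation, is also used in other cell types. The clones had 570 to 1934 reads with a median of 1013, and the heterogeneous population had 710. At 44.1 CPM the heterogeneous population was below 15 of the 17 clones, which ran from 37.9 CPM in clone F to 135 CPM in clone L. The fitted log2 difference was -0.77 (standard error 0.51) for NFATC1 and 0.83 (standard error 0.61) for CTSK, against 3.15 (standard error 0.64) for ACP5. Of these 3, ACP5 was the gene for which the heterogeneous population lay outside the clones in CPM.

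The receptor and ligand genes were barely counted. TNFRSF11A had 0 to 14 reads in the clones and 7 in the heterogeneous population. Clone A had the most, 14 reads (1.14 CPM, interval 0.622 to 1.91), then clone N with 11 and clone L with 8, and clones D, F, H and M had 0. The heterogeneous population, at 0.435 CPM, was below those 3 clones.

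TNFSF11 had 1 read in clone A, 1 in clone E and 0 in the other 16 libraries. TNFRSF11B had reads in 4 of the 18 libraries, namely 10 in clone O, 6 in clone C, 5 in clone P and 2 in clone Q. The heterogeneous population had 0 reads of either gene, which allows a level of up to 0.186 CPM (3 reads). Over the 17 clones this came to 2 reads of the ligand and 23 of the decoy receptor, too few to set one against the other.

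Of the other 2 genes of the mature osteoclast, CALCR, the receptor for the hormone calcitonin, had 11 reads in clone M and 0 to 3 in each other clone, with 0 in the heterogeneous population. ATP6V0D2, a subunit of the proton pump that acidifies the resorption space and takes part in cell fusion, had 7 reads in the heterogeneous population and 1 read in each of clones A, F and M, with 0 in the other 14. At 0.435 CPM (0.175 to 0.896) the heterogeneous population was above all 17 clones, on those 7 reads. MMP9, ACP5, CTSK and NFATC1 were thus counted in all 18 libraries, while RANK, the calcitonin receptor and ATP6V0D2 had at most 14 reads in any. Since MMP9, ACP5, CTSK and NFATC1 are also expressed in other cell types, their counts do not identify osteoclasts in these libraries.

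Each clone was then compared with the other 16 by edgeR's quasi-likelihood test across 11761 genes, to see whether an osteoclast gene stood apart in 1 clone. Of the 9 genes, 5 had enough reads to enter (MMP9, ACP5, CTSK, NFATC1 and TNFRSF11A), which gave 85 tests. After Benjamini-Hochberg adjustment over all genes 0 of the 85 passed 0.05, where 0.045% of all tests in these 17 comparisons did, and 4 had an unadjusted p under 0.05. Those were TNFRSF11A in clone A (log2 difference 2.60, standard error 1.11, edgeR adjusted p = 0.989), CTSK in clone D (1.29, standard error 0.52, adjusted p = 0.953), ACP5 in clone C (1.53, standard error 0.72, adjusted p = 0.751) and MMP9 in clone L (-6.05, standard error 2.88, adjusted p = 0.583). By limma-voom 0 of the 9 genes were called as well.

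The 4 genes with a median of at least 10 reads did not share 1 order over the clones. The correlations that follow describe 17 clones of 1 donor and are among many that could be drawn, so they carry no p-value. CTSK was lower where NFATC1 was higher (Spearman rho = -0.61, Pearson r = -0.48 on log2 CPM, and -0.38 without clones D and L, which are farthest from the CTSK median). The closest positive pair was MMP9 and ACP5 (rho = 0.38, r = 0.39, and 0.32 without clones L and F), and ACP5 stood at rank 904 of 10850 genes in likeness to MMP9. MMP9 and CTSK had rho = -0.30 (r = -0.34, and -0.63 without clones L and F), and MMP9 and NFATC1 had rho = 0.26.

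**Figure D3:**
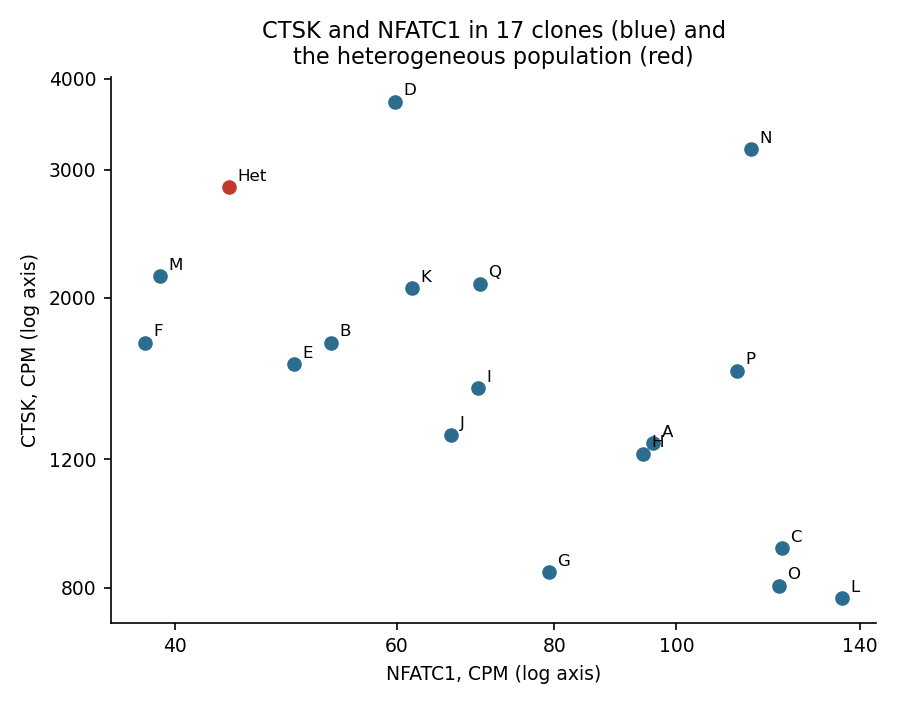
CTSK level (vertical log axis, CPM) against NFATC1 level (horizontal log axis, CPM) in the 17 clones (blue) and the heterogeneous population (red). Clones L, C and O combine high NFATC1 with low CTSK, clone N is high in both, and the heterogeneous population has 44.1 CPM of NFATC1 and 2837 CPM of CTSK.

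The genes whose order over the clones was most like that of MMP9 were B3GALT6, a galactosyltransferase of the glycosaminoglycan linker (rho = 0.84), NDUFA4L2, a mitochondrial protein (0.83), and BNIP3, a mitophagy receptor, VGLL4, a cofactor of TEAD factors, and ALKBH5, an RNA demethylase (0.78 each). Without clones L and F, farthest from the MMP9 median, their Pearson r ran from 0.61 to 0.78. All 5 lay within the range of the clones in the heterogeneous population. NDUFA4L2 was at 12.6 CPM there against 4.22 to 282 in the clones and BNIP3 at 49.2 against 35.3 to 251. With TMM-scaled library sizes 3 of these 5 genes were still among the top 5, and likewise with Pearson r.

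For CTSK the most similar genes were IRAK2, a kinase of interleukin-1 receptor signalling (rho = 0.93), VPS37A, of the endosomal sorting machinery (0.92), and ACER2, a ceramidase (0.92). For NFATC1 they were SOX10, a neural crest transcription factor (0.97), C16H1orf159 (0.95) and AHDC1 (0.95). SOX10 ran from 12 to 174 reads in the clones and had 21 in the heterogeneous population. For ACP5, whose counts are small, they were GOLSYN (0.84), NUDT4 (0.79) and ALKBH6 (0.77).

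The heterogeneous population was next compared with the clones for the other genes of the pathway, in 7 lists. edgeR's quasi-likelihood test across 11878 genes called 144 genes higher in the heterogeneous population (1.21% of those tested) and 1 lower (0.00842%). Of 88 pathway genes tested, 8 were higher and 0 lower. The lists were drawn up with earlier results of these libraries known, so these counts are not independent evidence.

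Of 28 further genes of osteoclast formation and function 26 had a read and 24 were tested, and 7 rose in the heterogeneous population, with a median log2 difference over the 24 of 0.85 against -0.04 for all genes tested. MMP12, the macrophage elastase, had 819 reads against 0 to 24 in the clones (log2 6.67, standard error 0.72, edgeR adjusted p = 1.22e-05). The transcription factor IRF8, which restrains osteoclast formation, had 31 reads against 0 or 1 (log2 6.39, standard error 0.68), and DESeq2 did not call it. TREM2 and its signalling adaptor TYROBP, which osteoclast precursors and macrophages both use, had 89 and 68 reads against at most 5 and 4 in a clone (log2 5.74 and 5.58). With few reads in every clone, IRF8, TREM2, TYROBP and SPI1 could enter the test through the heterogeneous population alone. The median of 0.85 and the 7 genes include them, so both are a description.

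The remaining 3 of the 7 were CSF1R, the receptor for CSF1, with 241 reads against 2 to 22, FCER1G, another signalling adaptor, with 144 against 7 to 20, and SPI1 (PU.1), the myeloid transcription factor, with 106 against 0 to 7. All 7 are expressed in macrophages, and CSF1R, FCER1G and TYROBP also stand in the macrophage list below. The 2 most abundant genes of the list, MMP14, a membrane-bound collagenase, and ITGB3, an integrin chain used by osteoclasts to attach to bone, had log2 differences of 0.31 and -0.40 (edgeR adjusted p = 0.827 and 0.909). Of the genes of cell fusion and acid secretion, DCSTAMP, OCSTAMP and SIGLEC15 had too few reads to be tested. DCSTAMP, needed for fusion, had 4 reads in the heterogeneous population and 0 in every clone, OCSTAMP had 0 reads everywhere, and SIGLEC15 had 0 in the heterogeneous population and at most 2 in a clone. The acid-secretion genes CLCN7, TCIRG1 and OSTM1 had 1799, 969 and 1058 reads against 707 to 1319, 465 to 956 and 592 to 1296 in the clones (edgeR adjusted p = 0.143, 0.656 and 0.916). CLCN7 and TCIRG1 were thus above every clone, also in CPM, and CLCN7 passed the threshold without clone D (adjusted p = 0.0148). Carbonic anhydrase CA2 had 113 reads against 54 to 197 (adjusted p = 0.988).

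**Figure D4:**
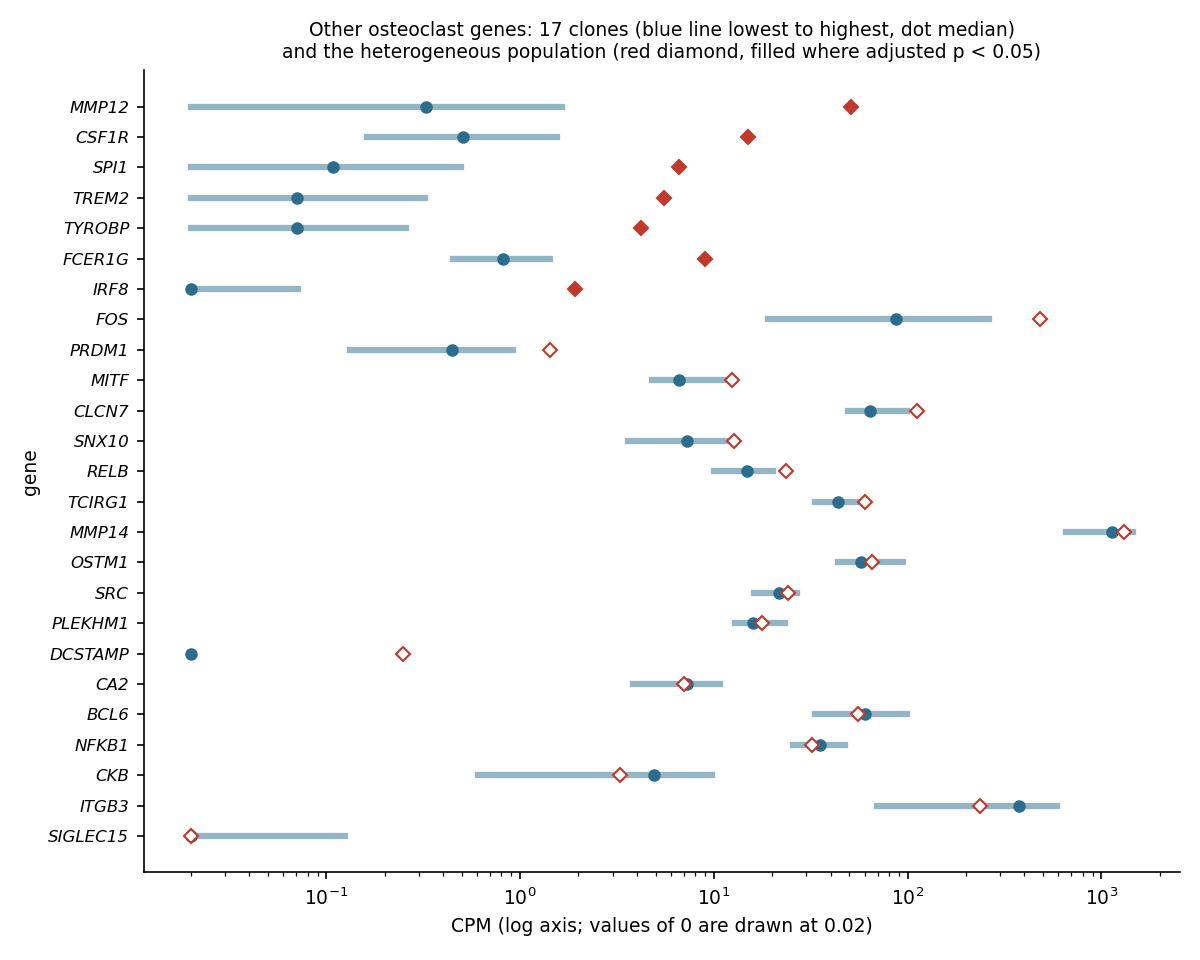
Level in CPM (horizontal log axis, with 0 drawn at 0.02) of the further osteoclast genes reported here that had a read: blue lines run from the lowest to the highest of the 17 clones, blue dots mark the clone median, and red diamonds mark the heterogeneous population, filled where the edgeR adjusted p was under 0.05. The 7 filled diamonds (MMP12, CSF1R, SPI1, TREM2, TYROBP, FCER1G and IRF8) lie to the right of all clones, whereas those of MMP14, ITGB3 and CA2 lie within the clones.

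Of 20 stromal regulators of osteoclast formation 15 were tested and 1 rose. This was the chemokine CCL2, which attracts monocytes, with 273 reads against 0 to 12 (log2 5.49, standard error 0.52, edgeR adjusted p = 5.49e-06). CSF1 was counted at 1952 to 6519 reads in the clones and 2254 in the heterogeneous population (log2 -0.69, adjusted p = 0.728). CXCL12, the chemokine that holds blood-forming cells in the marrow, ranged from 452 to 11039 reads between clones and had 564 there (log2 -2.41, standard error 1.42, adjusted p = 0.698). CSF1 was thus counted in every clone, and TNFSF11 in 2 of 17.

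The other 5 lists had no gene past the threshold. Among 18 tested subunits of the proton pump other than ATP6V0D2 the median log2 difference was 0.04, and ATP6V0D1, the widely expressed counterpart of ATP6V0D2, had 4329 reads against 2511 to 4980 (log2 0.36, adjusted p = 0.75). ATP6V1B2 had 2232 against 1599 to 2913 (log2 0.06, adjusted p = 0.961). Of 10 cathepsins tested, CTSB and CTSD, lysosomal proteases of most cells, had log2 differences of 0.78 and 0.82 (adjusted p = 0.737 and 0.698), close to the 0.83 of CTSK. The 10 calcineurin and NFAT genes had a median log2 difference of -0.07, and PPP3CA and RCAN1 had -0.52 and -0.66 (adjusted p = 0.719 and 0.832). Of 7 gelatinase partners and inhibitors tested, MMP2, the other gelatinase, had 42434 reads against 19860 to 54765 and TIMP3, a metalloproteinase inhibitor, 17458 against 15909 to 65277 (log2 0.22 and -1.19, adjusted p = 0.92 and 0.67). LCN2, which binds MMP9 protein, was not tested. Among the 4 tested partners of calcitonin receptors RAMP2 had 157 reads against 114 to 216, and the peptide ADM had 1279 against 136 to 5068.

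Macrophage genes, like MMP9, were mostly higher in the heterogeneous population than in the clones. Of 20 marker genes of macrophages, ITGAM, CYBB and MARCO had 0 reads in all libraries, and 16 of the other 17 were higher there than in any clone. CTSS, with 85.8 CPM, was below clone N at 95.3. The share of all genes higher there than in any clone was not computed, so this count is a description. The share of all genes called higher is given with the pathway lists above. Of the 14 tested, 11 were called higher, led by CD163, a scavenger receptor, with 667 reads against 0 to 12 (log2 7.44, standard error 0.72, edgeR adjusted p = 5.79e-06). CCR1, a chemokine receptor, MSR1, another scavenger receptor, and C1QA, a complement chain, had 203, 317 and 64 reads against at most 5, 11 and 3 (log2 6.94, 6.91 and 6.84, edgeR adjusted p = 7.71e-06, 3.67e-06 and 1.94e-05). By DESeq2, 3 of the 11 were not called, namely C1QA, MRC1 and VSIG4 (adjusted p = 0.185, 0.0523 and 0.273). CD68, a lysosomal membrane protein, had 619 reads against 16 to 44. A marker with few reads in the clones could enter the test through the heterogeneous population alone. C1QB, C1QC and LYZ, with few reads in every library, were not tested. The marker list was drawn up with earlier results of these libraries known, so its counts are not independent evidence. Summed over the 20 genes, the markers came to 13.6 to 102 CPM in the clones and 263 in the heterogeneous population. Without CTSS, a split made after the values were seen, the sums were 3.03 to 9.76 and 177 CPM. Whether macrophages were present, and what part they had in the MMP9 and ACP5 levels, was not tested.

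In the clones the macrophage markers and MMP9 did not keep 1 ratio. Spearman rho with MMP9 over the clones was -0.02 for CD68, -0.14 for FCER1G and -0.39 for CTSS. It is not given for the other markers. The heterogeneous population had 3.69 reads of MMP9 per read of the 19 markers other than CTSS, and the clones had between 0.0139 in clone L and 1.75 in clone P. Clones C, G and O, with the highest MMP9, also had the highest marker sums, 9.76 CPM in clone C and 9.16 in clone O. Of these, C and O are the closest pair of libraries. Clone K, next in marker sum at 8.28 CPM, had 4.36 CPM of MMP9, below clone P. Clone P, next in MMP9 at 7.56 CPM, had a marker sum of 4.33 CPM, and clone F, with 4 reads of MMP9, had 4.72 CPM. As a percentage of the CPM in the heterogeneous population, MMP9 was 0.0110% to 2.48% in the clones and the marker sum was 1.71% to 5.52%.

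**Figure D5:**
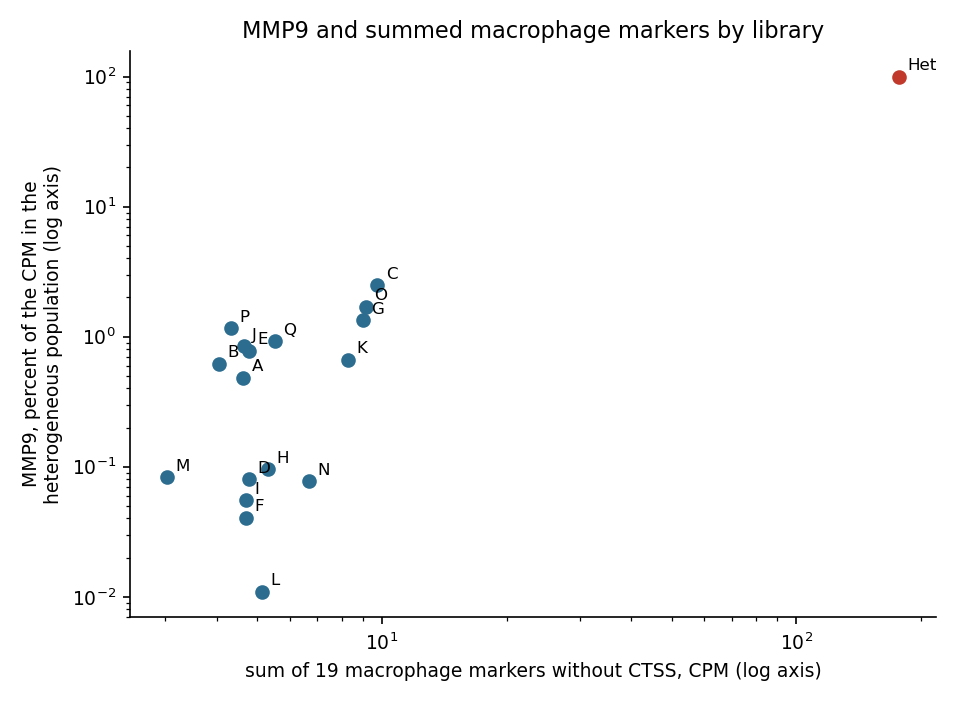
MMP9 as a percentage of its CPM in the heterogeneous population (vertical log axis) against the summed CPM of 19 macrophage markers without CTSS (horizontal log axis) for the 17 clones (blue) and the heterogeneous population (red). The clones spread from 0.0110% to 2.48% in MMP9 within a marker sum of 3.03 to 9.76 CPM, and the heterogeneous population stands apart at 177 CPM.

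Markers of 2 other cell types were checked in the same way. Of 9 osteoblast genes 8 had a read and were tested and 0 were called. COL1A1, a chain of collagen I, had 1729815 reads against 209967 to 1459062, and SPP1 (osteopontin) 5798 against 2796 to 26259. RUNX2, the osteoblast transcription factor, had 1958 reads against 930 to 2576, and BGLAP (osteocalcin) had 1 read against 0 to 17. Of the 3 endothelial genes tested 0 were called, CDH5 had 0 reads everywhere and VWF had 170 reads against 9 to 93 (log2 1.94, edgeR adjusted p = 0.0569) and TEK 24 against 3 to 33. PECAM1, the other endothelial gene tested, had 4 reads against 3 to 41 (log2 -1.79). The 7 tested MSC markers had a median log2 difference of -0.45, and ITGB1 had 23228 reads against 24686 to 45356. In CPM, NT5E, ALCAM and ITGB1 were below the lowest clone in the heterogeneous population (220.5 against 270, 64.4 against 65.8 and 1443 against 1497). The other MSC markers lay within the clones. The share of all genes below every clone was not computed.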

How the data were processed

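Poly-adenylated RNA of 17 clones and 1 heterogeneous population was sequenced with single-end reads. The authors aligned them with STAR 2.3.0e to bosTau7 and counted reads per RefSeq gene (annotation release 103) with HTSeq. The deposited values are these raw counts, without normalization, and a table of the whole series differed in 0 of 305892 cells. The 5 tally lines per file that name no gene were left out (18.8% to 26.8% of reads lay outside genes). Whether the counting used strand is not given in the sources used here. Gene lengths were not used, so levels are compared between libraries and not between genes.

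The 9 genes and all lists were chosen with earlier results of these data known. CPM used the total on genes (3 reads correspond to 0.163 to 0.261 CPM), and log2 values had 0.25 added. Tests were edgeR 4.0.16 (TMM, filterByExpr, glmQLFit, glmQLFTest) in R 4.3.3, with Benjamini-Hochberg adjustment. The spread of a library tested alone was taken from the other clones, and standard errors are the log2 difference divided by the root of F. A gene high in 1 library passes the filter through it. DESeq2 1.42.0, limma 3.58.1 (voom), other scalings, no filter and each clone left out were alternatives. On simulated counts for the heterogeneous library (11736 genes, 200 changed by log2 2), edgeR found 76% of raised and 59% of lowered genes with 5.59% of calls false, and DESeq2 76% of each with 27.3% false. The changed genes of this simulation were drawn only from well-counted genes. Its rates therefore do not cover genes near 0 reads in the clones, such as IRF8 and C1QA. Named genes were the 9, in each list up to 4 with the largest change past the threshold and the 2 with the highest median CPM, the 5 most like MMP9 and 3 most like each other gene with a median of 10 reads. Others were named after their values were seen, and 1 listed gene is counted in its list but not reported here by name. Levels, intervals and correlations were computed with scipy 1.17.1, pandas 2.3.3 and numpy 2.4.6 under Python 3.11.15, and plots with matplotlib 3.10.9.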

Additional observations from a re-analysis of the deposited data

How the results depend on the processing

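The heterogeneous population has 1 library and each clone 1, so no value here has a replicate of its own. With at most 14 reads in a library, the levels of TNFRSF11A, TNFRSF11B, TNFSF11, CALCR and ATP6V0D2 are imprecise. Why their counts are low was not tested. Under 21 alternatives the fitted log2 difference of MMP9 stayed between 7.21 and 7.56, that of ACP5 between 3.06 and 3.31, that of CTSK between 0.76 and 0.95 and that of NFATC1 between -0.88 and -0.72. Genes called higher in the heterogeneous population numbered 78 by DESeq2, which called 11 lower. Genes called lower were 2 with library totals only and 1 to 2 with each clone left out (2 without clone J or clone L). Of the listed genes called by edgeR, IRF8, C1QA, MRC1, VSIG4 and PTPRC were not called by DESeq2, and IL1A was gained without a filter (adjusted p = 0.00179) and CLCN7 without clone D (0.0148). In the comparisons of 1 clone with the rest limma-voom called 524 genes against 90 by edgeR, 308 higher and 43 lower in clone N, and 0 of the 9 genes. Of the 5 genes most like MMP9, 3 were among the top 5 with TMM-scaled totals, 3 by Pearson r and 4 without clone O, which was added after seeing the data. A pseudocount of 1 moved the median log2 CPM of 6 genes by more than their SD. The cause of these differences was not tested.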
